A study of Homo sapiens with 18 samples.

Results

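The cytosolic ribosomal protein genes were taken as all genes whose symbol in the array annotation had the form of a large-subunit name (RPL and a number) or a small-subunit name (RPS and a number), with an optional A, X or L at the end, together with the stalk genes RPLP1 and RPLP2. Pseudogenes and the ribosomal protein kinases were left out by the form of the name. The rule found 72 genes of 20046 with a single symbol, 46 of the large and 26 of the small subunit. They were read by 119 probes, of which the probe with the highest mean over all 18 arrays stood for each gene.

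Transcripts were measured on Illumina bead arrays in 2 established cell lines of human uterine cancer, Hec-1A, from an adenocarcinoma of the endometrium, and RL95-2, from an adenosquamous endometrial tumour. Each line carried one of 3 treatments, labelled Control IgG, PDGFAA and PDGFAA+3G3-1 (PDGFAA+3G3 from here on), with 3 arrays in each of the 6 groups. PDGFAA is a dimeric ligand of the receptor PDGFR alpha, and 3G3 is an antibody that blocks the human receptor. The study asked how blockade of this receptor acts in uterine cancer cells, and Hec-1A was to be compared with RL95-2. No dose or duration of treatment is given in the sources used here. The PDGFAA label names no antibody, so that in PDGFAA against Control IgG the ligand and the absence of IgG cannot be told apart. The labels do not say that replicates came from separate cultures, so each p-value measures only the spread between these samples, which may be technical.

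Ribosomal proteins clothe the ribosomal RNAs of the small subunit, which decodes the mRNA, and of the large subunit, which joins the amino acids. Cells make the proteins in matched amounts, and most of their mRNAs begin with a C followed by a run of pyrimidines, the terminal oligopyrimidine tract, through which the kinase mTOR and the RNA-binding protein LARP1 set how well the mRNAs are translated. Growth factor receptors, PDGFR alpha among them, signal to mTOR through PI3 kinase and AKT. Control through the tract acts on translation and mRNA stability, and translation was not measured on these arrays.

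The annotated first bases are shown for members on which the results below turn, from RefSeq on GRCh38.p14, with 20 bases before and 15 bases after the start on the transcribed strand. Capitals mark a C at the annotated first base followed by at least 4 bases that are each C or T, up to the end of that run. The run of RPL39 is 19 bases long and goes on past the bases shown. The first 5 genes were higher in Hec-1A in at least 1 comparison, the next 7 were lower, and the last 3 were among the 10 with the largest part in the scatter between replicates.
RPS12, chr6:132814549-132814583, plus strand: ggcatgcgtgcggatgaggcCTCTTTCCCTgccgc
RPL24, chr3:101686704-101686738, minus strand: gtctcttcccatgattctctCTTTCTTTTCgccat
RPL28, chr19:55385912-55385946, plus strand: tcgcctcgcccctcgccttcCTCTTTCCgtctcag
RPS23, chr5:82278340-82278374, minus strand: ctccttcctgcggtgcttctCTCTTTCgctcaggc
RPL14, chr3:40457319-40457353, plus strand: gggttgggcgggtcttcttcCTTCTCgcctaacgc
RPL36, chr19:5690275-5690309, plus strand: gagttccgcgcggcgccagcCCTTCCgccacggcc
RPS21, chr20:62387083-62387117, plus strand: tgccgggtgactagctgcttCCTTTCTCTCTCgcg
RPS9, chr19:54200838-54200872, plus strand: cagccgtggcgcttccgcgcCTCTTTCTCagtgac
RPL29, chr3:51995881-51995915, minus strand: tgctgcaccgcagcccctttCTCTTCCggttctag
RPS3, chr11:75399498-75399532, plus strand: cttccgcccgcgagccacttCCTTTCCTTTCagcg
RPL13A, chr19:49487588-49487622, plus strand: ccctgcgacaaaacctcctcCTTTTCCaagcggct
RPS28, chr19:8321476-8321510, plus strand: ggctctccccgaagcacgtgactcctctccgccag
RPL39, chrX:119791616-119791650, minus strand: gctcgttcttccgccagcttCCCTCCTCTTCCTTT
RPL21, chr13:27251538-27251572, plus strand: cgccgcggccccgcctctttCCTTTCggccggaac
RPL9, chr4:39458908-39458942, minus strand: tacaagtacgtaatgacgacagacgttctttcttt

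The run at the first base was found in 43 of the 60 members with a start in the table (71.7%), against 1404 of 27305 genes in all (5.14%). Only the transcribed strand was read, since the pattern is tied to the first base of the transcript. Among other genes of translation whose mRNAs are known to carry the tract, 12 of 13 had it (92.3%), and among the nuclear genes for mitochondrial ribosomal proteins 6 of 66 (9.09%). Members with such a start stood among the genes higher in Hec-1A, among those lower there, and among those that scattered most. The windows of RPS28 and RPL9 hold no such run at the first base given in the table, which says only that the letters are not at that base.

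After normalization, which gave every array the same distribution with a median of 6.62 and a highest value of 14.11 on the log2 scale, 41 of the 72 genes lay among the brightest 1% of probes, and 32 had a mean over 13. Whether differences this near the top of the scale are compressed was not tested. At the other end, RPL10, a large-subunit protein near the site of peptide bond formation, was read by a probe between 6.41 and 6.60 on all arrays, and its testis-expressed copy RPL10L by one between 6.42 and 6.67. Both probes stayed at the level of the array median and did not pass the filter on dim probes, which asked for a signal above the median on at least 3 arrays, so that 70 members were tested. A second RPL10 probe had a mean of 6.51 and did not pass the filter either. Whether the RPL10 probes read its transcript was not tested, so the level of RPL10 cannot be taken from them. These are levels of single probes and say nothing of the order of the genes. Whether a probe tells a member from its many pseudogenes was not tested.

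Facts of the whole series bear on the results in a few places. The 75th percentile of signal ran from 122.7 to 185.9 over the arrays. Epithelial markers were bright, with 6 of 8 genes over 8 in each line and group means over a line of up to 13.08 for EPCAM in Hec-1A and 12.91 for KRT19 in RL95-2. None of the leukocyte, endothelial and fibroblast markers had a mean over 8 in either line, and the highest were COL1A1 at 7.22 and CDH5 at 7.19, both in RL95-2. With 3 arrays in a group, their number limits the precision. In RNA of a whole culture, fewer cells and less RNA per cell cannot be told apart.

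**Figure D1:**
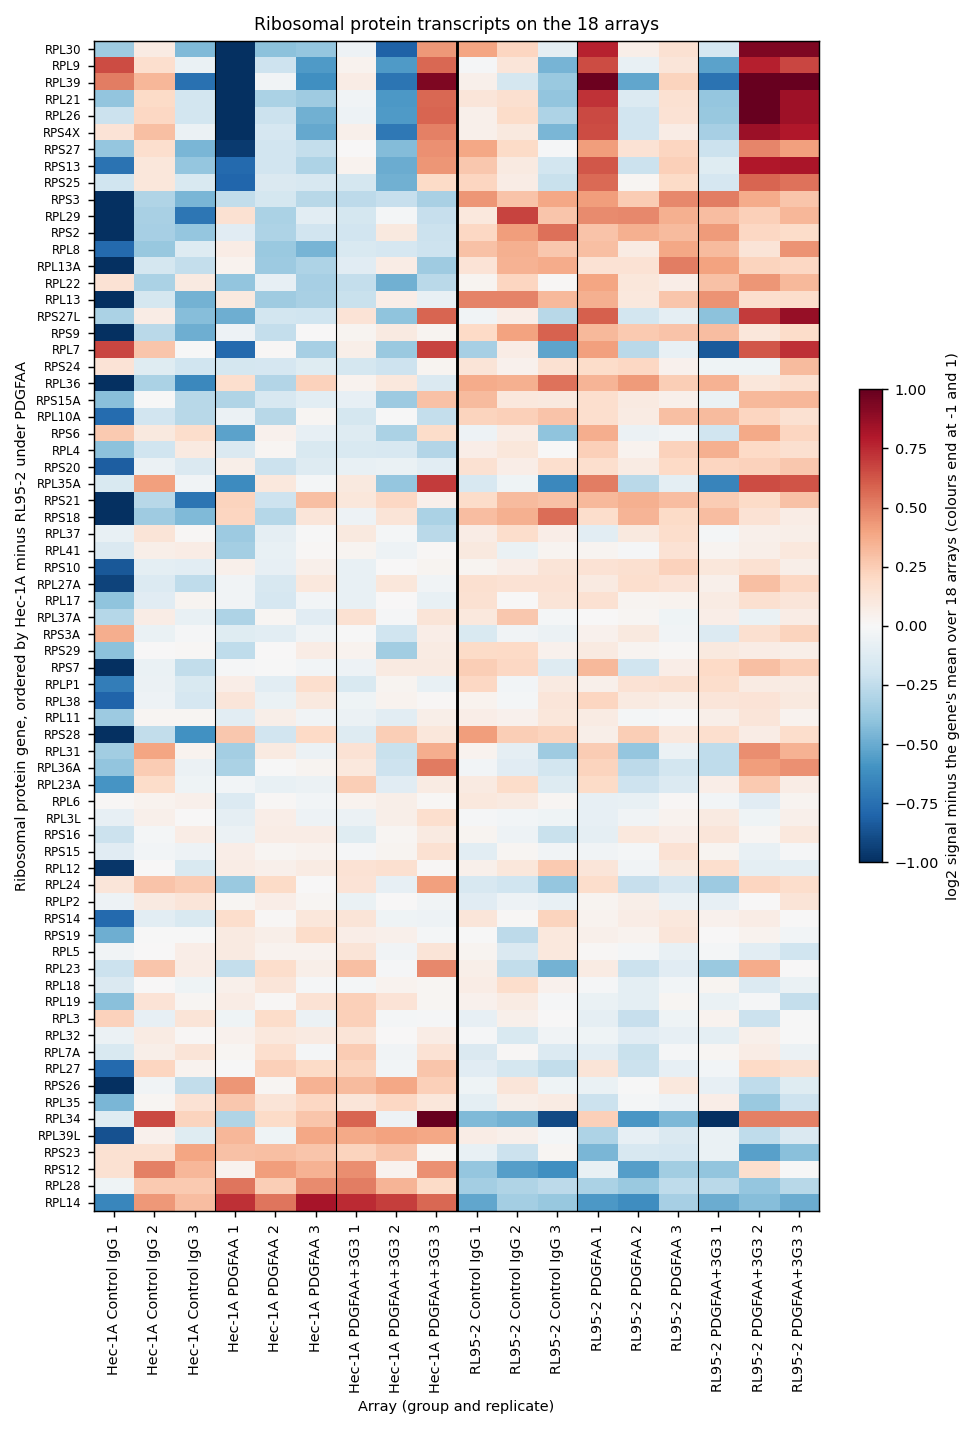
Each row is 1 of the 70 tested ribosomal protein genes and each column 1 of the 18 arrays, and the colour gives the log2 signal minus the mean of that gene over all arrays. Hec-1A Control IgG replicate 1 is blue for most rows, the bottom rows (RPL14, RPL28, RPS12, RPS23) split by cell line, and the top rows (RPL30, RPL9, RPL39, RPL21) move between replicates of a group.

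The array of Hec-1A Control IgG replicate 1 lay far from the rest of its group and is set out first, since it enters the comparison of the lines. On this array 29 of the 70 members (41.4%) were lower by over 0.5 log2 than the mean of replicates 2 and 3, while 7.04% of all 15401 tested genes were. Another 3 members (4.29%) were higher by over 0.5, against 9.05% of all genes. The median of the members was -0.39 and that of all genes -0.01. Replicates 2 and 3 differed from each other by a median of 0.16 over the members, and by at most 1.08, in RPL39. The 75th percentile of signal was 185.9 on this array, the highest of the series, and 157.6 and 159.5 on the other two of its group. What set the array apart was not tested.

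RPS21, a small-subunit protein, had log2 signals of 8.10, 10.02 and 9.56 in the Hec-1A Control IgG replicates 1, 2 and 3. RPL36, a large-subunit protein, had 10.01, 11.74 and 11.41, and RPS9, a core protein of the small subunit, had 10.31, 11.82 and 11.59. In all 3 genes the first array was the low one, and the other pair lay closer to each other than to it. Against the mean of that pair the array was lower by the largest amounts in RPS21 (-1.69), RPL36 (-1.56), RPS9 (-1.40), RPL13 (-1.07) and RPS18 (-1.06). It was higher by the largest amounts in RPL39 (0.71), RPL9 (0.60), RPL7 (0.53), RPS3A (0.40) and RPS24 (0.30). RPL5 and RPL11, which bind the small RNA of the large subunit and can hold the ubiquitin ligase MDM2, had 12.72, 12.76 and 12.82, and 13.23, 13.62 and 13.62, in that order. So the array was at the level of its group for RPL5 and below it for RPL11, and the shift was uneven among ribosomal protein genes.

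**Figure D2:**
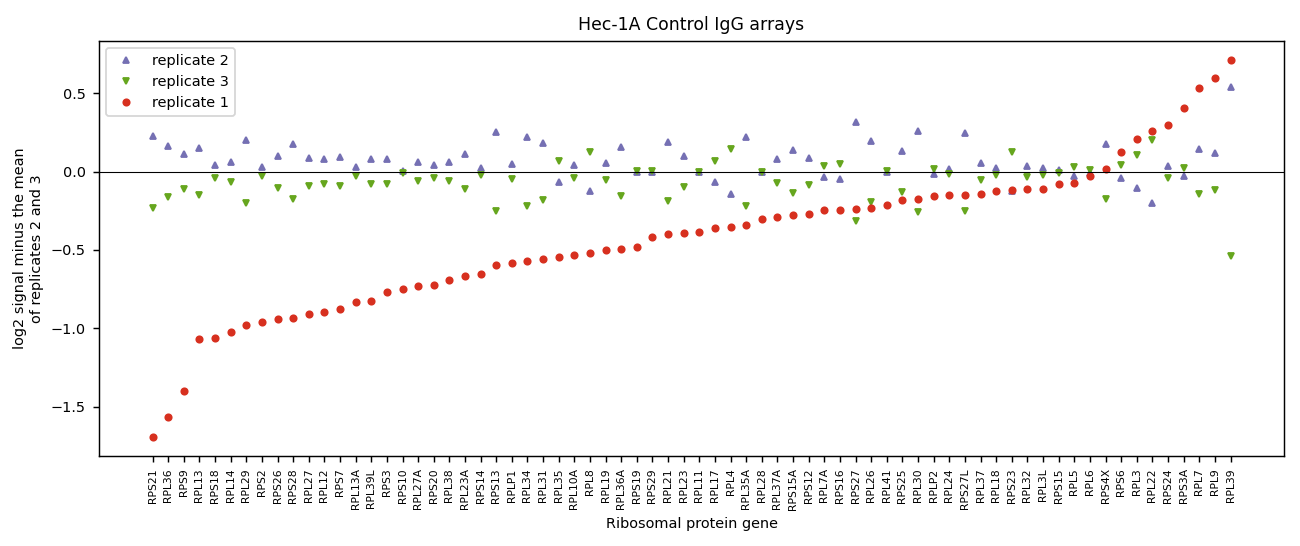
For each tested ribosomal protein gene, in order, the log2 signal of the 3 Hec-1A Control IgG arrays is plotted as its distance from the mean of replicates 2 and 3. Replicate 1 (circles) runs from -1.69 for RPS21 to 0.71 for RPL39, while the triangles of replicates 2 and 3 stay near 0 for most genes.

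In the comparison of Hec-1A with RL95-2 under Control IgG, more ribosomal protein genes were lower than higher in Hec-1A, and the share that was lower fell when the array that stood apart was left out. With all arrays, 4 of 70 members were higher in Hec-1A (5.71%, with 22.8% of all tested genes called higher), and 23 were lower (32.9%, with 23.1% of all genes). Without that array, 7 were higher (10%, against 21.4% of all genes) and 17 lower (24.3%, against 21.6%). The share of members lower in Hec-1A was then close to that of all genes, and the share higher was below it. The median difference of the members was -0.13 with all arrays and -0.05 without that array, and that of all genes 0.00 both times. A call is an adjusted p-value under 0.05 in a linear model fitted with limma over all probes, and every difference is Hec-1A minus RL95-2 on the log2 scale.

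Under PDGFAA, where no array of that group enters, 5 members were higher (18.7% of all genes) and 6 lower (18% of all genes). Under PDGFAA+3G3, 4 were higher (18.8%) and 5 lower (18.4%). The error is shared by all groups, and the median standard error of a member was 0.15 with the array that stood apart and 0.10 without it. Without it the counts were 7 higher (21.6% of all genes) and 16 lower (20.5%) under PDGFAA, and 8 higher (21.6%) and 11 lower (20.6%) under PDGFAA+3G3. The median difference was -0.13 and -0.11 in that order. Of 70 members, 47 had the same sign under all 3 treatments, 12 of them positive and 35 negative. The share of all genes that kept their sign was not computed, so these counts cannot be read as particular to the members.

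The 3 treatments use different arrays, so a gene called in all of them was measured on 3 separate sets of samples, although normalization and error were shared. With all arrays 4 members were called the same way in all 3, RPL28 and RPS23 higher and RPL8 and RPS3 lower in Hec-1A. There were 11 when Hec-1A Control IgG replicate 1 was left out, with RPL14, RPL28 and RPS23 higher and RPL10A, RPL13, RPL13A, RPL29, RPL8, RPS2, RPS20 and RPS3 lower. Over all genes 27.1% were called the same way under all 3 treatments with all arrays and 30.7% without that array.

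**Figure D3:**
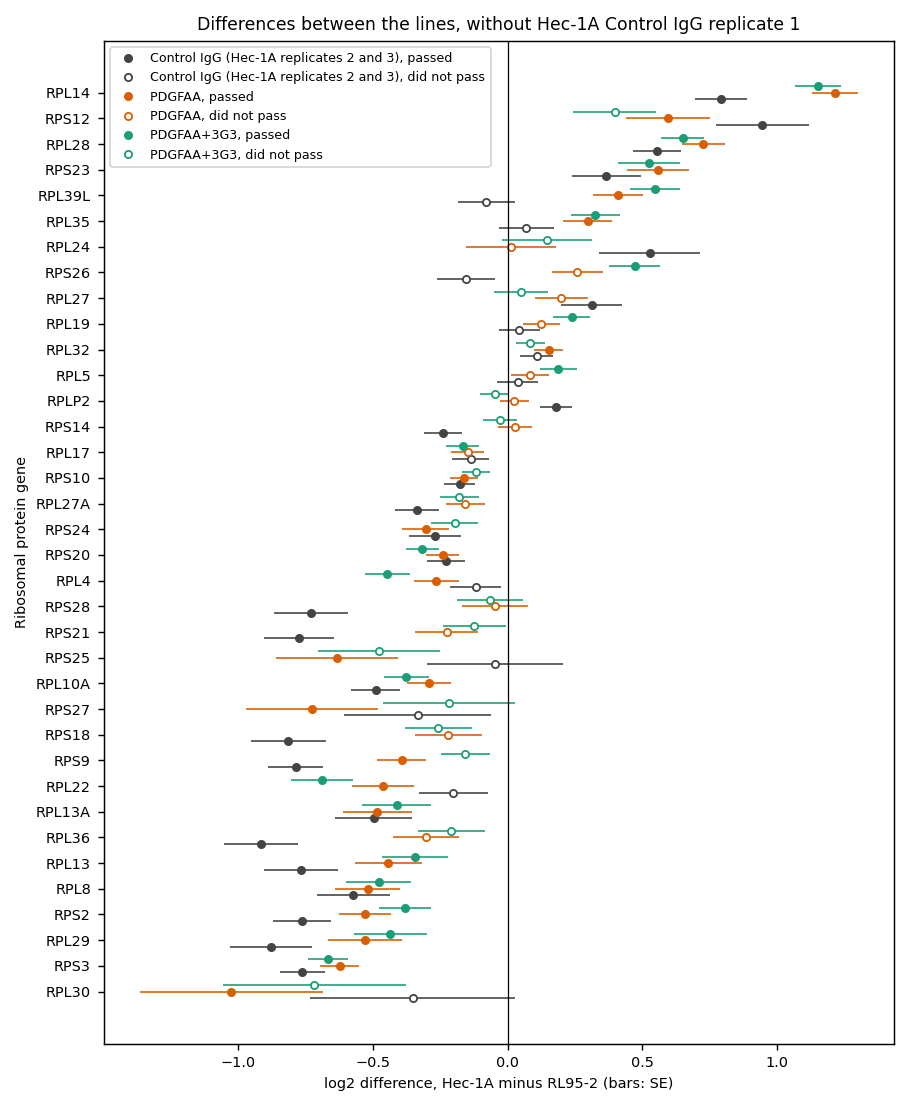
Differences of Hec-1A minus RL95-2 on the log2 scale, with standard errors, for each ribosomal protein gene that passed under at least 1 treatment when Hec-1A Control IgG replicate 1 was left out. Filled points passed (adjusted p under 0.05), open points did not, and RPL14, RPL28 and RPS23 at the right and RPS3, RPL29, RPS2 and RPL8 at the left are filled for all 3 treatments.

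RPL14, a protein on the outer face of the large subunit, showed the widest gap of those higher in Hec-1A. Its log2 signals in Hec-1A were 9.46, 10.55 and 10.43 under Control IgG, 10.85, 10.66 and 10.95 under PDGFAA, and 10.86, 10.81 and 10.69 under PDGFAA+3G3. In RL95-2 they were 9.60, 9.78 and 9.74 under Control IgG, 9.54, 9.50 and 9.79 under PDGFAA, and 9.63, 9.70 and 9.62 under PDGFAA+3G3. Every Hec-1A array lay above every RL95-2 array except Hec-1A Control IgG replicate 1, which lay below all of them. The difference was 1.21 ± 0.19 (SE, adjusted p = 0.000132) under PDGFAA and 1.14 ± 0.19 (adjusted p = 0.000231) under PDGFAA+3G3. Under Control IgG it was 0.44 ± 0.19 with all arrays (adjusted p = 0.0944) and 0.79 ± 0.10 without that array (adjusted p = 4.82e-06). A second, dimmer RPL14 probe gave 0.65 under PDGFAA (adjusted p = 0.0193) and -0.09 under Control IgG (adjusted p = 0.785).

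RPL28, a large-subunit protein, was dim for a member, with log2 signals of 7.63, 7.93 and 7.93 (Control IgG), 8.21, 7.92 and 8.15 (PDGFAA) and 8.18, 8.01 and 7.86 (PDGFAA+3G3) in Hec-1A. The RL95-2 arrays had 7.33, 7.37 and 7.41, 7.36, 7.30 and 7.42, and 7.40, 7.29 and 7.40 in the same order. All 9 RL95-2 arrays lay below all 9 Hec-1A arrays. The differences were 0.46 ± 0.09 (SE), 0.73 ± 0.09 and 0.66 ± 0.09, with adjusted p-values of 0.000927, 1.22e-05 and 4.05e-05. No background was subtracted, so the fold of a probe this near the array median is understated.

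RPS23, a small-subunit protein at the decoding site, had 10.65, 10.65 and 10.89, 10.80, 10.80 and 10.78, and 10.73, 10.78 and 10.52 in Hec-1A under Control IgG, PDGFAA and PDGFAA+3G3. In RL95-2 it had 10.42, 10.29 and 10.52, 10.04, 10.34 and 10.33, and 10.43, 9.95 and 10.08. The lines did not overlap within any treatment. The differences were 0.32 ± 0.12 (SE, adjusted p = 0.0399), 0.55 ± 0.12 (adjusted p = 0.00146) and 0.52 ± 0.12 (adjusted p = 0.00248). The first of these lay close to the threshold, and its adjusted p ran from 0.000269 to 0.273 over the alternatives tried.

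RPS12, a protein of the small subunit, was the largest of those higher in Hec-1A under Control IgG. Its log2 signals were 13.43, 13.78 and 13.61 in Hec-1A and 12.89, 12.73 and 12.66 in RL95-2. The groups did not overlap, and the difference was 0.85 ± 0.16 (SE, adjusted p = 0.000528). It was 0.59 ± 0.16 under PDGFAA (adjusted p = 0.0108) and 0.40 ± 0.16 under PDGFAA+3G3, where it did not pass (adjusted p = 0.0846). In RL95-2 under PDGFAA+3G3 the arrays had 12.88, 13.45 and 13.27, and the highest of them lay within the Hec-1A range of 13.31 to 13.74 under that treatment. RPL24, a large-subunit protein that bridges to the small subunit, had 13.33, 13.50 and 13.47 against 13.05, 13.01 and 12.83 under Control IgG (0.47 ± 0.17, adjusted p = 0.0408, and 0.00204 to 0.488 over the alternatives). Its differences under PDGFAA (0.01) and PDGFAA+3G3 (0.15) did not pass.

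Among the genes lower in Hec-1A, RPS3, a small-subunit protein at the mRNA entry channel that also takes part in DNA repair, passed under all 3 treatments. Its log2 signals in Hec-1A were 11.65, 12.49 and 12.34 under Control IgG, 12.55, 12.62 and 12.52 under PDGFAA, and 12.54, 12.57 and 12.47 under PDGFAA+3G3. In RL95-2 they were 13.24, 13.08 and 13.18, 13.21, 13.05 and 13.28, and 13.31, 13.17 and 13.07 in the same order. All RL95-2 arrays lay above all Hec-1A arrays. The differences were -1.01 ± 0.15 (SE, adjusted p = 4.76e-05), -0.62 ± 0.15 (adjusted p = 0.00465) and -0.66 ± 0.15 (adjusted p = 0.00274). Without Hec-1A Control IgG replicate 1 the first was -0.76 ± 0.08 (adjusted p = 1.33e-06).

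RPL8, a large-subunit protein near the peptidyl transferase centre, had 12.44, 12.84 and 13.09, 13.29, 12.84 and 12.75, and 13.07, 13.05 and 13.01 in Hec-1A. In RL95-2 it had 13.51, 13.57 and 13.48, 13.52, 13.30 and 13.60, and 13.54, 13.35 and 13.66. The lines did not overlap within any treatment, though under PDGFAA the highest Hec-1A array (13.29) nearly met the lowest RL95-2 array (13.30). The differences were -0.74, -0.51 and -0.47, each ± 0.15 (SE), with adjusted p-values of 0.000873, 0.016 and 0.0251. A second, dimmer RPL8 probe gave -1.10 under Control IgG (adjusted p = 0.000291).

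RPS2, a small-subunit protein, had 11.79, 12.78 and 12.72 in Hec-1A and 13.32, 13.53 and 13.66 in RL95-2 under Control IgG. The RL95-2 arrays lay above all of them. The difference was -1.07 ± 0.19 (SE, adjusted p = 0.000261), and -0.76 ± 0.11 without Hec-1A Control IgG replicate 1 (adjusted p = 2.5e-05). RPL29, a large-subunit protein that also binds heparin, had 7.59, 8.77 and 8.37 against 9.20, 9.78 and 9.37. Its difference was -1.20 ± 0.22 (SE, adjusted p = 0.000303), and -0.88 ± 0.15 without that array (adjusted p = 0.000208). Its second probe, of nearly the same brightness, gave -1.20 (adjusted p = 0.000124).

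RPL13A, a large-subunit protein that is often taken as a reference gene for qPCR, had 10.79, 11.65 and 11.59 in Hec-1A and 11.96, 12.18 and 12.20 in RL95-2 under Control IgG. The lines did not overlap, and the difference was -0.77 ± 0.19 (SE, adjusted p = 0.0042). The differences were -0.50, -0.48 and -0.41 under the 3 treatments when Hec-1A Control IgG replicate 1 was left out, a fold of 1.41, 1.40 and 1.33, with adjusted p-values of 0.0116, 0.00682 and 0.0192. With all arrays RPL13A was not among the members called lower under all 3 treatments.

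The 4 largest differences of the members lower in Hec-1A under Control IgG belonged to RPL36 (-1.43 ± 0.29 SE, adjusted p = 0.00101), RPS21 (-1.33 ± 0.31, adjusted p = 0.00275), RPS9 (-1.24 ± 0.26, adjusted p = 0.000975) and RPL29. The first 3 were also the genes lowest on the array that stood apart. Without it RPL36 came to -0.92, RPS21 to -0.77 and RPS9 to -0.79, with adjusted p-values of 4.97e-05, 0.000152 and 9.75e-06. Under PDGFAA the same genes gave -0.30, -0.22 and -0.39 with all arrays (adjusted p = 0.545, 0.691 and 0.322). Under PDGFAA+3G3 they gave -0.21, -0.12 and -0.15 (adjusted p = 0.702, 0.846 and 0.747). RPS18, at the head of the small subunit, and RPS28, at its mRNA exit, went the same way, with -1.16 and -1.03 under Control IgG (adjusted p = 0.000494 and 0.00062), -0.22 and -0.05 under PDGFAA, and -0.25 and -0.06 under PDGFAA+3G3, where none of them passed. These p-values under PDGFAA and PDGFAA+3G3 rest on the error with all arrays. Without the array that stood apart, the median standard error of a member under PDGFAA was 0.10 in place of 0.15, and 16 members were called lower in place of 6. RPL36, RPS21, RPS9, RPS18 and RPS28 were not among those called lower under all 3 treatments in that setting.

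RPL13, a large-subunit protein, was the member whose probes were called in opposite directions. The brightest probe had 8.23, 9.45 and 9.15 in Hec-1A and 10.12, 10.12 and 9.95 in RL95-2 under Control IgG, a difference of -1.12 ± 0.22 (SE, adjusted p = 0.00068). A second probe gave 0.48 in the opposite direction (adjusted p = 0.0209), and 0.91 under PDGFAA (adjusted p = 0.000204) where the brightest gave -0.44 (adjusted p = 0.17). No direction can be given for the gene as a whole, and what each probe reads was not tested. Over all members, 45 further probes in 33 genes were tested, and 35 had the sign of the brightest probe under Control IgG. Of 16 further probes whose brightest partner was called, 11 were called the same way and 1, that of RPL13, the opposite way. Probes of other members disagreed where the brightest was not called. RPS15 gave -0.03 on its brightest probe (adjusted p = 0.803), and -1.21 and -1.14 on 2 dimmer ones (adjusted p = 0.000551 and 0.000144). RPL6 gave -0.04 (adjusted p = 0.63), and 0.99 and -0.05 on 2 dimmer ones (adjusted p = 0.00752 and 0.822).

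The stalk proteins RPLP1 and RPLP2, acidic proteins that recruit elongation factors, differed in direction on their brightest probes under Control IgG. RPLP1 had 12.99, 13.62 and 13.53 in Hec-1A and 13.88, 13.65 and 13.77 in RL95-2 under Control IgG (-0.39 ± 0.12 SE, adjusted p = 0.0217). Without Hec-1A Control IgG replicate 1 it did not pass (-0.19, adjusted p = 0.0962). That probe lay near the top of the scale, and the 2 other RPLP1 probes, of mean level 13.05 and 11.67, gave -1.35 and -1.93 with all arrays (adjusted p = 2.46e-05 and 0.000133). RPLP2 had 13.74, 13.87 and 13.90 against 13.67, 13.73 and 13.71 (0.14 ± 0.06, adjusted p = 0.0876), and passed only without that array (0.18 ± 0.06, adjusted p = 0.029). Under PDGFAA the means of RPLP1 and RPLP2 were 13.72 and 13.82 in Hec-1A, against 13.80 and 13.79 in RL95-2. Under PDGFAA+3G3 both lay lower in Hec-1A, at 13.61 and 13.75 against 13.79 and 13.80. RPL11 (-0.18 ± 0.08, adjusted p = 0.118), RPL5 (0.01 ± 0.07, adjusted p = 0.922) and RPS6, the small-subunit protein phosphorylated by the mTOR-dependent S6 kinases (0.31 ± 0.18, adjusted p = 0.239), did not pass under Control IgG on their brightest probes. A second RPL11 probe of nearly the same brightness gave -0.21 and passed (adjusted p = 0.02).

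Among the members are 4 copies of others, known for their use in particular tissues or states. RPL39L, a copy of RPL39 known from testis and from many cancer lines, had 9.76, 10.67 and 10.51, 10.96, 10.59 and 11.02, and 11.01, 11.03 and 11.02 in Hec-1A under Control IgG, PDGFAA and PDGFAA+3G3. In RL95-2 it had 10.70, 10.68 and 10.62, 10.33, 10.55 and 10.48, and 10.57, 10.38 and 10.49. The lines overlapped under Control IgG and were apart under both other treatments. It was higher in Hec-1A under PDGFAA+3G3 (0.54 ± 0.17 SE, adjusted p = 0.0231). The values under PDGFAA (0.41 ± 0.17, adjusted p = 0.0925) and under Control IgG (-0.35 ± 0.17, adjusted p = 0.127) did not pass with all arrays. When Hec-1A Control IgG replicate 1 was left out, the value was 0.41 ± 0.09 under PDGFAA (adjusted p = 0.00247) and -0.08 under Control IgG (adjusted p = 0.661).

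The other copies did not pass under any treatment with all arrays. RPS27L, a p53-induced copy of RPS27, gave -0.14 under Control IgG (adjusted p = 0.795), and RPS27 gave -0.41 there (adjusted p = 0.243) and passed under PDGFAA (-0.72 ± 0.25 SE, adjusted p = 0.0414). RPL3L, a copy of RPL3 known from skeletal and heart muscle, stayed between 6.48 and 6.74 on all arrays, at the array median. RPL3 itself lay between 13.20 and 13.67 on its brightest probe, with a difference of 0.10 under Control IgG (adjusted p = 0.507). A second RPL3 probe, of mean level 13.09, gave -0.26 there and passed (adjusted p = 0.0462), so no direction can be given for RPL3.

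By subunit, 2 of 26 small-subunit members were higher and 11 lower under Control IgG (median -0.40), and 2 of 44 large-subunit members were higher and 12 lower (median -0.09), against 22.8% of all genes higher and 23.1% lower. Without Hec-1A Control IgG replicate 1 the counts were 2 and 10 for the small subunit (median -0.19) and 5 and 7 for the large subunit (median 0.03), against 21.4% and 21.6% of all genes. Under PDGFAA the medians were -0.22 and -0.06, and under PDGFAA+3G3 -0.18 and -0.07, for the small and the large subunit. The small-subunit median was the lower one under each treatment, with and without that array. The difference between the subunits was not tested.

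Other genes of ribosome synthesis and translation were counted from fixed lists, under Control IgG with all arrays unless another setting is named. The counts stand against 22.8% of all genes called higher and 23.1% lower, or 21.4% and 21.6% without the array that stood apart, and the first 4 genes named from a list have its smallest p-values. Of 18 tested translation partners whose mRNAs are known for the pyrimidine tract, 3 were higher and 9 lower in Hec-1A, with a median of -0.22, and 2 and 7 without that array (median -0.21). EIF3F and EIF3H, subunits of the initiation factor eIF3, were lower (-1.13 and -0.91, adjusted p = 1.09e-05 and 1.4e-05), and EIF3E, another subunit, was higher (0.95, adjusted p = 2.58e-05). EEF1B2, an exchange factor of the elongation step, was lower (-0.52, adjusted p = 0.000121). Subunits of a single complex thus differed in direction, as members of the ribosome did.

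Of 34 ribosome assembly factors, 8 were higher and 10 lower (median -0.13), and 8 and 8 without that array (median -0.07). The median was 0.02 under PDGFAA and 0.06 under PDGFAA+3G3. PPAN, RRS1 and HEATR1, which act on nucleolar precursors, were lower in Hec-1A (-1.10, -0.98 and -0.71), and SBDS, which frees the new large subunit from its last inhibitor, was higher (1.11), with adjusted p-values of 1.81e-08, 6.63e-08, 3.2e-07 and 7.1e-06. These 4 passed in the same direction under PDGFAA (-0.63, -1.01, -0.78 and 1.35) and PDGFAA+3G3 (-0.65, -0.94, -0.80 and 1.19). Of 14 genes of RNA polymerase I, which transcribes the ribosomal RNA, 4 were higher and 6 lower (median -0.11), with the subunits POLR1H (-1.65), POLR1D (-0.99) and POLR1C (-0.74) and the factor UBTF (-0.50) lower, at adjusted p-values between 1.43e-08 and 2.79e-05. Those called higher were RRN3, the factor that brings the polymerase to its promoter (0.82), POLR1F (0.83), POLR1B (0.49) and TAF1B (0.42), at adjusted p-values between 3.19e-05 and 0.00522.

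Of 16 upstream regulators, 4 were higher and 7 lower (median -0.22), and 3 and 6 without that array (median -0.09). Under PDGFAA 4 were higher and 1 lower (median 0.02), and under PDGFAA+3G3 4 and 3 (median 0.13). Of all genes, 18.7% were called higher and 18% lower under PDGFAA, and 18.8% and 18.4% under PDGFAA+3G3. MYCN, a MYC family factor, was lower in Hec-1A (-1.30, adjusted p = 1.37e-08), where its level of 6.53 was that of the array median, and TSC1, which restrains mTOR, was higher (0.70, adjusted p = 3.1e-07). MLST8, a subunit of the mTOR complexes (-0.68, adjusted p = 9.46e-05), and MAX, the partner of MYC (-0.62, adjusted p = 0.000272), were lower, and did not pass under PDGFAA (adjusted p = 0.251 and 0.122) or PDGFAA+3G3 (adjusted p = 0.346 and 0.544). Of 7 genes of the p53 checkpoint that ribosomal protein imbalance can engage, 1 was lower, the cell cycle inhibitor CDKN1A (-0.34, adjusted p = 0.00651), and RRM2B (0.61, adjusted p = 0.0657), ZMAT3 (-0.21, adjusted p = 0.2) and SESN1 (0.13, adjusted p = 0.204) did not pass. Of 4 further ribosomal protein copies, RPL22L1 was higher (0.84, adjusted p = 2.59e-05, with a level of 6.60 in RL95-2, that of the array median) and RPL7L1 lower (-0.36, adjusted p = 0.0478), while RPL36AL (0.25, adjusted p = 0.724) and RPL26L1 (0.04, adjusted p = 0.892) did not pass. When the array that stood apart was left out, RPL7L1 did not pass (-0.15, adjusted p = 0.243) and RPL26L1 was called higher (0.30, adjusted p = 0.0408).

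RPL22, the partner of RPL22L1 and a large-subunit protein that also binds other RNAs, ran the other way. RPL22 was lower in Hec-1A under PDGFAA (-0.46 ± 0.12 SE, adjusted p = 0.00904) and PDGFAA+3G3 (-0.68 ± 0.12, adjusted p = 0.000368), and its value under Control IgG did not pass (-0.11, adjusted p = 0.554). RPL22L1 was higher there under both treatments (0.60 and 0.64, adjusted p = 0.000767 and 0.000479). The RPL22 signals were 10.38, 10.70 and 10.44 against 11.17, 10.89 and 10.84 under PDGFAA, and 10.53, 10.29 and 10.51 against 11.07, 11.22 and 11.10 under PDGFAA+3G3, with no overlap between the lines. The pair was set side by side after its values were seen.

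The mitochondrial ribosomal proteins, which serve the separate ribosome of the organelle, had 9 of 73 higher and 27 lower in Hec-1A under Control IgG (median -0.26), against the same shares of all genes as above. Without Hec-1A Control IgG replicate 1 they had 15 higher and 26 lower (median -0.07). With all arrays they had 10 higher and 10 lower under PDGFAA (median -0.02), and 14 and 9 under PDGFAA+3G3 (median 0.08). Of all genes, 18.7% were called higher and 18% lower under PDGFAA, and 18.8% and 18.4% under PDGFAA+3G3. With the smallest p-values under Control IgG, MRPL43 (-1.65), MRPL13 (-1.07), MRPS16 (-1.03) and MRPL53 (-1.60) were lower, at adjusted p-values between 4.61e-08 and 9.55e-07. The nuclear genes of the respiratory chain had 5 of 81 higher and 45 lower (median -0.57), and 5 and 41 without that array (median -0.37). Under PDGFAA and PDGFAA+3G3 with all arrays, 17 and 14 were lower (medians -0.27 and -0.21) and 5 higher each time. Of all genes, 18% and 18.4% were called lower there, and 18.7% and 18.8% higher. The smallest p-values were those of UQCRH, a subunit of complex III (-5.62, adjusted p = 3.84e-13), and its copy UQCRHL (-5.86, adjusted p = 2.31e-17), and whether their probes tell the copies apart was not tested. The level of UQCRH in Hec-1A, 6.53, was that of the array median, so that its difference is a lower bound. NDUFAF6, an assembly factor of complex I (-1.55, adjusted p = 1.25e-10), and UQCRC2, a core subunit of complex III (-1.20, adjusted p = 1.47e-07), came next by p-value.

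For the treatments, none of the 70 members passed in any of the 6 comparisons within a line or in the 2 differences between lines, and almost no gene of the whole table did. With PDGFAA against Control IgG, 0% of all 15401 genes passed in Hec-1A and 0.00649%, a single gene, in RL95-2. With PDGFAA+3G3 against PDGFAA it was 0% in Hec-1A and 0.00649% in RL95-2. With PDGFAA+3G3 against Control IgG it was 0.00649% in Hec-1A and 0% in RL95-2. The differences between lines had 0.00649% for the PDGFAA effect and 0% for the 3G3 effect. At an unadjusted p under 0.05 the members numbered 24, 2, 1, 0, 20 and 5 in the 6 comparisons in this order, and 17 and 0 in the differences between lines, in limma's test. Of all genes, 26%, 6.28%, 4.27%, 3.55%, 25.4% and 11.3% did so in the same order, and 24.6% and 2.62% in the differences between lines. A missed threshold does not show that levels were equal, and the median standard error of a member's difference between treatments was 0.15.

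In Hec-1A the differences from Control IgG rest on the group that holds the array that stood apart. The median difference of the members was 0.08 for PDGFAA and 0.19 for PDGFAA+3G3 with all arrays, and 0.00 and 0.04 without Control IgG replicate 1. Members at an unadjusted p under 0.05 numbered 12 in both comparisons without it, in place of 24 and 20, and the shares of all genes went from 26% to 10.8% and from 25.4% to 12.7%. When Control IgG replicate 2 was left out instead, so that the array that stood apart weighed more, 20 members were called higher and 1 lower for PDGFAA, against 7.93% and 7.21% of all genes. For PDGFAA+3G3 18 were called higher and 1 lower, against 7.34% and 8.92% of all genes.

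RPS28, at the mRNA exit of the small subunit, had the smallest p of the members for PDGFAA in Hec-1A. Its log2 signals were 11.59, 12.70 and 12.35 under Control IgG, 13.22, 12.76 and 13.15 under PDGFAA, and 12.82, 13.20 and 13.06 under PDGFAA+3G3. The Control IgG arrays all lay below the others. The difference was 0.83 ± 0.20 (SE, adjusted p = 0.113) for PDGFAA and 0.81 ± 0.20 (adjusted p = 0.067) for PDGFAA+3G3 against Control IgG, and 0.53 and 0.51 without replicate 1 (adjusted p = 0.298 and 0.157). RPS26, which contacts the mRNA beside RPS28, had 10.22, 11.26 and 11.05, 11.74, 11.31 and 11.64, and 11.61, 11.68 and 11.54. Its differences were 0.72 ± 0.19 (adjusted p = 0.113) and 0.77 ± 0.19 (adjusted p = 0.0666). RPS21 gave 1.17 ± 0.31 (adjusted p = 0.113), and RPL39L gave 0.71 ± 0.17 for PDGFAA+3G3 against Control IgG (adjusted p = 0.0651). RPS21, RPS26 and RPL39L were low on Control IgG replicate 1, by -1.69, -0.94 and -0.825 against the mean of replicates 2 and 3. Without that array the largest positive difference of any member was 0.615 for PDGFAA and 0.633 for PDGFAA+3G3 against Control IgG.

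At the other end in Hec-1A, RPL9 had 13.35, 12.87 and 12.63 under Control IgG and 11.42, 12.49 and 12.13 under PDGFAA (-0.94 ± 0.37 SE, adjusted p = 0.167). The groups did not overlap, but the PDGFAA arrays spread over more than 1 log2 unit. RPS4X, the X-linked small-subunit protein, gave -0.72 (adjusted p = 0.252) and RPS6 -0.37 (adjusted p = 0.262) in the same comparison. With PDGFAA+3G3 against Control IgG, the smallest p-values among negative differences were those of RPL22 (-0.30, adjusted p = 0.177), RPLP2 (-0.09, adjusted p = 0.43) and RPS6 (-0.27, adjusted p = 0.453). The differences of RPS28, RPL18 and RPL39L between the lines in the PDGFAA effect were 0.99, 0.26 and 0.76, and those of RPL9 and RPS6 were -1.29 and -0.59, at adjusted p-values between 0.137 and 0.225. Those comparisons share the Control IgG arrays.

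With PDGFAA+3G3 against PDGFAA, the comparison of the blocked with the unblocked ligand, no member came near the threshold. The median difference was 0.05 in Hec-1A and 0.04 in RL95-2, and the adjusted p-value of every member rounded to 1. RPL37A, a zinc-binding protein of the large subunit (0.22), RPL9 (0.70) and RPS27 (0.47) had the smallest p-values among positive differences in Hec-1A. On the negative side RPLP2, RPL4 and RPS23 gave -0.07, -0.11 and -0.12. In RL95-2 RPS12, RPL7A and RPL22 gave 0.25, 0.13 and 0.16, and RPL5, RPS26 and RPS15 gave -0.08, -0.17 and -0.05.

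In RL95-2 the members with the smallest p for PDGFAA were RPL18 (-0.14 ± 0.06 SE, adjusted p = 0.846), RPL6 (-0.12, adjusted p = 0.863) and RPS23 (-0.17, adjusted p = 0.897), and on the positive side RPLP2 (0.09), RPS16 (0.11) and RPS12 (0.19). For PDGFAA+3G3 against Control IgG RPL18 gave -0.16 (adjusted p = 0.463) and RPS12 0.44 (adjusted p = 0.466), with RPL22 at 0.27, RPS16 at 0.17, RPS23 at -0.25 and RPL6 at -0.11. These comparisons share arrays, so the recurrence of a name is no repeat.

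**Figure D4:**
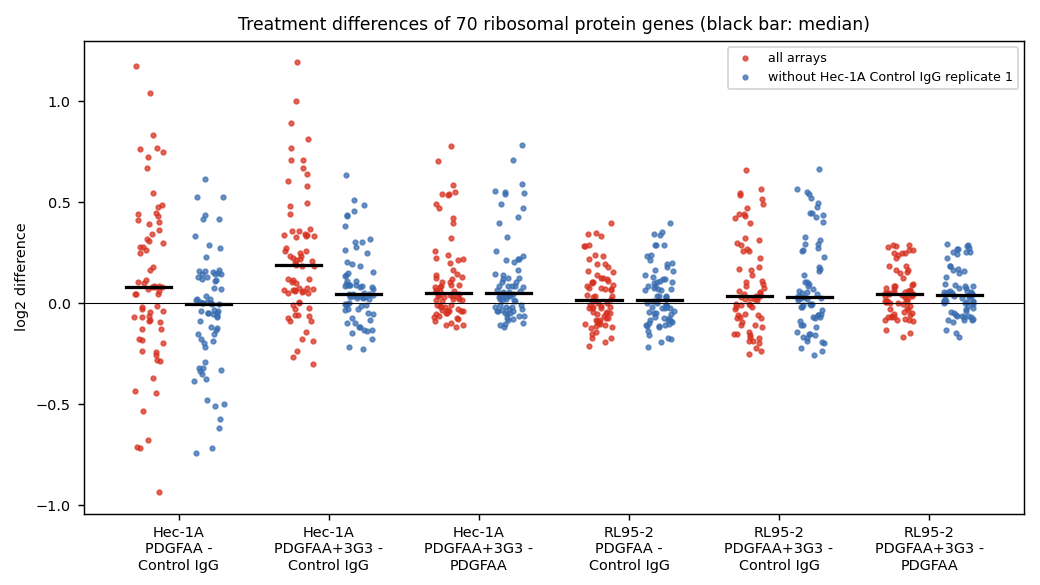
Each point is 1 of 70 ribosomal protein genes, and its height is the log2 difference between 2 treatments within a cell line, with all arrays (red) and without Hec-1A Control IgG replicate 1 (blue). Black bars are medians, which move from 0.19 to 0.04 for PDGFAA+3G3 minus Control IgG in Hec-1A when that array is left out and stay near 0 for RL95-2.

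Deviations of the arrays from their group means were shared by many of the members. The leading component of these deviations held 87.6% of their variance over the 9 RL95-2 arrays, 87.5% over the 6 treated Hec-1A arrays and 60.3% over all 18 arrays. How much of the members' whole variation lay within groups was not computed. The weights of the 70 genes on it, computed separately in the 2 lines, had a Pearson correlation of 0.94 across genes, which are not independent replicates. Over all other tested genes the component held 56.8% and 56.0%, and its weights correlated at 0.76. Both sets of arrays share platform, probes and normalization. The correlation for the members lay between 0.92 and 0.94 under 5 scalings, with none between arrays among them.

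RPL39, among the smallest proteins of the large subunit, at the wall of the exit tunnel, carried the largest weight, 0.38 in RL95-2 and 0.37 in Hec-1A. Its log2 signals were 11.003, 12.74 and 12.95 in RL95-2 under PDGFAA+3G3 and 12.72, 11.22 and 11.96 under PDGFAA. In Hec-1A it had 11.81, 11.01 and 12.68 under PDGFAA+3G3 and 10.35, 11.70 and 11.12 under PDGFAA. Single replicates were thus over 1 log2 unit apart in all 4 groups, more than any difference between group means of this gene. RPL34, a large-subunit protein, ran in step with 7.88, 9.51 and 9.50, and 9.24, 8.42 and 8.55 in RL95-2. RPL21, also of the large subunit, had 11.03, 12.45 and 12.27, and 12.14, 11.29 and 11.57 there.

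The 10 genes with the largest summed weights were RPL39, RPL34, RPL9, RPL26, RPS4X, RPL21, RPL7, RPL30, RPL35A and RPS27L, 8 of the large and 2 of the small subunit. Over 0.1 in both lines were 19 members, 12 of the large and 7 of the small subunit. In RL95-2 the array at one end was PDGFAA+3G3 replicate 1, with a score of -3.26, and at the other end lay PDGFAA replicate 1 (1.82) and PDGFAA+3G3 replicates 2 and 3 (1.70 and 1.56). In Hec-1A the ends were PDGFAA+3G3 replicate 2 (-2.28) and PDGFAA replicate 1 (-1.97) against PDGFAA+3G3 replicate 3 (2.20). Arrays of the same treatment lay at both ends. For the component of all other genes, the same RL95-2 array stood alone at one end, with PDGFAA replicate 1 farthest at the other. In Hec-1A its low end held the same 2 arrays, and its high end PDGFAA replicate 2, followed by PDGFAA+3G3 replicate 3.

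Probes of one gene shared this scatter in some cases and not in others. RPS4X rose from PDGFAA+3G3 replicate 2 to replicate 3 in Hec-1A by 1.22 on its brightest and by 1.20 on its second probe. In RL95-2 its PDGFAA+3G3 replicates 2 and 3 lay above replicate 1 by 1.16 and 1.21. RPL34 gave 1.63 and 1.01 in RL95-2. RPL9 gave 1.26 on its brightest probe there, but 0.30 and 0.11 on the other two. For RPL9 the spread therefore belonged to 1 probe, and the whole transcript cannot be said to have moved by that amount.

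**Figure D5:**
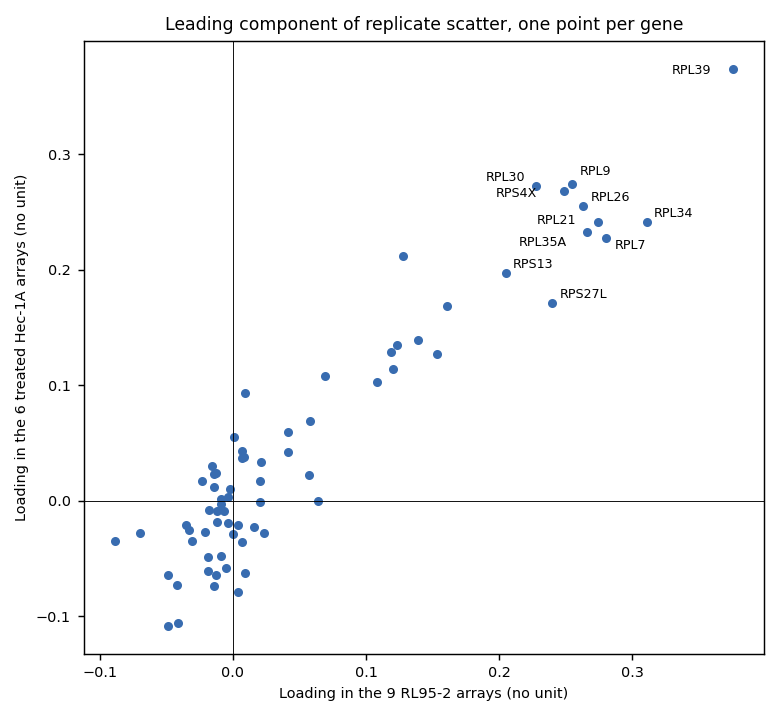
Each point is 1 of 70 ribosomal protein genes, placed by its weight on the leading component of replicate scatter in the 9 RL95-2 arrays (x) and, computed separately, in the 6 treated Hec-1A arrays (y), without unit. The 11 named genes sit at the upper right with RPL39 farthest out, and the correlation across genes is 0.94.

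On the array that stood apart these genes did not follow that pattern as a block. Hec-1A Control IgG replicate 1 was above the mean of its group's other arrays for RPL39 (0.71), RPL9 (0.60) and RPL7 (0.53), near it for RPS4X (0.02) and below it for RPL34 (-0.57), RPL21 (-0.40) and RPL35A (-0.34). The genes that were lowest on it, RPS21, RPL36 and RPS9, are not among the 10 with the largest weights. RPL30, a large-subunit protein and 1 of the 10, had 11.04, 11.87 and 11.89 in Hec-1A and 13.05, 12.34 and 12.44 in RL95-2 under PDGFAA and was called lower (-1.01 ± 0.34 SE, adjusted p = 0.0366). Under PDGFAA+3G3 it had 12.23, 11.48 and 12.72 against 12.11, 13.22 and 13.22, with overlapping lines (-0.71, adjusted p = 0.152). The replicates of a treated group spanned at most 0.33 log2 units for RPL28, 0.23 for RPS3 and 0.32 for RPS2, and at least 1.35 for RPL39.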

How the data were processed

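The authors deposited a table of signal intensity per probe without normalization, exported with BeadStudio per the labels, and a table of processed log2 values per probe. The version of BeadStudio and a genome build are not named in the sources at hand. The deposited log2 values differed by at most 0.0438 from a quantile normalization of the intensity table. Neither table holds detection p-values, so no background correction that needs them could be made.

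Intensities were floored at 16, taken as log2 and quantile-normalized over the 18 arrays with limma 3.58.1 in R 4.3.3. A probe was tested if its signal exceeded the median of the array on 3 or more arrays, as for 32216 of 47231 (68.2%). Gene symbols came from the platform annotation, where 30113 probes had 1 symbol, 8 several and 17110 none, and chromosomes of the members from the RefSeq gene table. The linear model of 6 group means left 12 residual degrees of freedom, to which moderation added 3.29. In 11 comparisons, two-sided p-values were adjusted over all tested probes (Benjamini-Hochberg), with a threshold of 0.05. Percentages of all genes are over 15401 genes by their brightest probe, or 15265 where Hec-1A Control IgG replicate 1 was left out and the remaining arrays normalized anew. Samples were grouped by the labels for cell line and treatment. Values are levels or differences on the log2 scale, and ± is the standard error of a difference from the model. The script was tested on simulated data with known changes.

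Members, lists and tests were chosen with earlier results of these data known. Named for the comparison of the lines were members called without overlap of the arrays, up to 10 each way under Control IgG. Also named were the copies, the stalk, RPL5, RPL11, RPS6 and RPL13A, the 3 smallest p-values each way in comparisons with no call, and 4 genes of each other list. RPL14, RPL8, RPS26, RPL22, RPL30, RPL39 and the other genes named for replicate scatter were added after their values were seen. Alternatives changed the scaling, background, filter, moderation, array weights, block, probe choice and arrays used. Plots were made in Python 3.11.15 with matplotlib 3.10.9. Some members of the family are not reported here.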

Additional observations from a re-analysis of the deposited data

How the results depend on the processing

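Under the alternatives tried, 605 counts of called members stayed within 1.5 times the reported count and 45 did not. The reported count was 0 in every treatment comparison, and a 0 again entered as unchanged, so this total says little of the comparisons of the lines. Of the median differences, 324 moved by less than that median's spread between replicates (0.16) and 1 moved by more. The reported medians between the lines (-0.13, -0.13 and -0.11) were smaller than that spread, so a median could reach 0 or change sign and still enter as unmoved. For Hec-1A against RL95-2 under Control IgG, the median that moved by more came to -0.30 when each array was scaled to a common median. Members called higher there (4 as reported) numbered 2 without a filter on dim probes and 8 with array weights, and 8 with 4 arrays left out together, a setting chosen after seeing the data (Hec-1A Control IgG replicate 1, RL95-2 PDGFAA replicate 1 and PDGFAA+3G3 replicates 2 and 3). Under PDGFAA, members called higher (5 as reported) numbered 2 without normalization between arrays, 3 with the common median and 8 without the 4 arrays. Members called lower (6 as reported) numbered 11 with the common median, 11 with a filter at the 75th percentile, 15 with array weights and 12 without the 4 arrays. Under PDGFAA+3G3, members called higher (4 as reported) numbered 8 with array weights and 8 without the 4 arrays, and members called lower (5 as reported) numbered 11 with array weights, 3 with the mean of all tested probes of a gene and 9 without the 4 arrays.

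In the treatment comparisons, where 0 members were called as reported, array weights called 13 higher and 1 lower for PDGFAA and 8 higher and 3 lower for PDGFAA+3G3 against Control IgG in Hec-1A, and 7 higher in the difference between lines for PDGFAA. For PDGFAA+3G3 against Control IgG in Hec-1A, the filter at the 75th percentile called 6 higher and an intensity trend with robust moderation 3, with RPL39L at adjusted p = 0.0432 and 0.043 by limma. The share of all genes called was not computed for these settings or for those of the paragraph before. The counts therefore cannot be read as particular to the members.

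Leaving out each array in turn gave, under Control IgG, 2 to 7 members higher and 17 to 27 lower. Under PDGFAA it gave 3 to 7 higher and 1 to 16 lower, and under PDGFAA+3G3 3 to 8 higher and 3 to 11 lower. The highest of these counts came without Hec-1A Control IgG replicate 1, except the 27, which came without replicate 2. The lowest came without Hec-1A Control IgG replicate 3, Hec-1A PDGFAA replicate 3 or RL95-2 Control IgG replicates 1 or 2 (2 higher under Control IgG). Under PDGFAA they came without RL95-2 PDGFAA replicate 2 (3 higher) or replicate 1 (1 lower). Under PDGFAA+3G3 they came without Hec-1A PDGFAA+3G3 replicate 1. For PDGFAA against Control IgG in Hec-1A the range was 0 to 20 higher and 0 to 1 lower, for PDGFAA+3G3 against Control IgG 0 to 18 higher and 0 to 1 lower, and for the difference between lines in the PDGFAA effect 0 to 10 higher, the upper ends all without Hec-1A Control IgG replicate 2. The cause was not tested. Shares of all genes were computed only without Hec-1A Control IgG replicate 1. For PDGFAA and PDGFAA+3G3 against Control IgG in Hec-1A they were also computed without replicate 2.

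Whether the replicate numbers pair the samples is not known from the labels. Deviations of arrays with the same number correlated between -0.70 and 0.33, and only 4 of 18 pairs exceeded 0.1. Scatter shared by many genes enters these correlations, so they cannot settle the pairing. With the replicate number as a block within each line, members called higher numbered 2 under each of the 3 treatments, and members called lower 2 under PDGFAA and 3 under PDGFAA+3G3. The share of all genes called with the block was not computed.

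Among named genes, RPL24 lost its call under Control IgG in 11 and RPS23 in 7 of 29 alternatives, RPL13 lost it with the mean of its probes (-0.32), and the other 11 named genes kept theirs. Signs turned in RL95-2 only, for differences that had not passed. They were RPLP2 (-0.018 and -0.048) and RPS16 (-0.001 and -0.03) for PDGFAA without normalization and with the common median, and RPL6 with the mean of its probes (0.102 for PDGFAA and 0.221 for PDGFAA+3G3 against Control IgG). For PDGFAA+3G3 against PDGFAA RPS15 gave 0.022 without normalization, 0.005 with the common median and -0.079 to 0.008 with each array left out in turn. Without the 4 arrays RPL5 gave 0.026 in that comparison, and RPS23 0.021 for PDGFAA+3G3 against Control IgG. Signal over background could not be assessed without detection p-values, and with 3 arrays a group small differences are beyond reach.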
